A study of Mus musculus with 15 samples.

Results

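The genes described here build the contractile machinery of the heart muscle cell. A list of 41 symbols was used, which names parts of the thin filament, the thick filament and M-band, the Z-disc and the costamere. A gene was included when the RefSeq accession of a non-control array probe mapped to its symbol. That rule found 39 of the 41 genes, through 68 of the 41174 probes on the array, and no probe was found for Myh7b or Mylk3. The 39 genes comprised 13 of the thin filament, 8 of the thick filament and M-band, 13 of the Z-disc and 5 of the costamere. The array named 18350 genes in all.

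The samples were heart tissue from 15 C57BL/6 mice, each hybridised alone to a 1-colour Agilent array. The question was how the heart differs after chronic methamphetamine in each sex. Mice were 8 to 10 weeks old at the start and received weekly intraperitoneal injections for 20 weeks. The meth groups (4 males and 4 females) received methamphetamine hydrochloride at a dose that climbed to 40 mg/kg, and the PBS groups (4 males and 3 females) received phosphate-buffered saline on the same schedule. The labels gave no genotype beyond the strain. The males came from 2 trials, with 2 meth and 2 PBS hearts in each. Some meth-treated males died before the end of the treatment, so the male meth hearts are those of survivors.

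The arrays lay on 4 slides scanned in 3 sessions. Slides 1 and 2 held the trial 1 males and female replicates 1 and 2 of each group. Slide 3 held the 4 trial 2 males, so trial and slide cannot be told apart in males. Slide 4 held only female hearts (meth replicates 3 and 4, PBS replicate 3), and its arrays were brighter, with a 75th percentile signal between 438 and 588.7 against 306.9 to 402.7 elsewhere. The titles placed those 3 hearts in trial 1 and another label placed them in trial 2. The share of probes well above background ran from 61.3% to 71.4% across arrays, with 0 saturated spots.

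A sarcomere is the repeating unit of striated muscle. Thin filaments of actin carry the tropomyosin and troponin that make contraction depend on calcium. Thick filaments of myosin pull on them and are tied together in the middle at the M-band. Titin runs from the M-band to the Z-disc and acts as a spring. The Z-disc anchors the thin filaments of neighbouring sarcomeres and senses stretch, and costameres join the outermost Z-discs to the cell membrane. Mutations in many of these genes cause dilated or hypertrophic cardiomyopathy in people.

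Upstream sequence is shown for 3 genes on which the comparisons turned and for which RefSeq gave a start site: Lmod2, the leading gene in females, Ttn, which was measured by the most probes, and Myoz2, which had the lowest p-value for a difference between the sexes in response. Each stretch holds the 250 bases before the start, read on the gene's own strand from RefSeq for build GRCm38.p6. Lmod2 is at chr6:24597521-24597770 on the plus strand, Ttn at chr2:76982548-76982797 on the minus strand and Myoz2 at chr3:123034988-123035237 on the minus strand. Capitals mark matches on either strand to CANNTG (the E-box, whose pattern is its own reverse complement), CATTCC (the MCAT element), TATAAA (the TATA box) or GATAA (the GATA element).
Lmod2: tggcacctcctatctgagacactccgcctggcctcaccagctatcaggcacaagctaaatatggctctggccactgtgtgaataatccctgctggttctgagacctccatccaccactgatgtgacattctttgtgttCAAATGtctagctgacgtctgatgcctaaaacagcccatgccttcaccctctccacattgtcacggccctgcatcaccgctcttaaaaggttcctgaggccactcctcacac
Ttn: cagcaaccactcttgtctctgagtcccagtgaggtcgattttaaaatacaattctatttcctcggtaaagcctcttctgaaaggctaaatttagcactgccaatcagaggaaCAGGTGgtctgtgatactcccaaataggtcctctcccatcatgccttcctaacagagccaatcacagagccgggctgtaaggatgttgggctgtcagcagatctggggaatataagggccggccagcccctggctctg
Myoz2: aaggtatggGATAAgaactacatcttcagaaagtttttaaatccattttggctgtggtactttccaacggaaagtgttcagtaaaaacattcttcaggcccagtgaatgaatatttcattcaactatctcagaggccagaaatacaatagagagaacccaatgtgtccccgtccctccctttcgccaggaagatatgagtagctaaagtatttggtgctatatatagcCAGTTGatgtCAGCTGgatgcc

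These windows held 1 E-box match in Lmod2, 1 in Ttn and 2 in Myoz2, which also held the GATA match. A start site was found for 35 of the 41 listed genes, at 48 windows, and none for Cryab, Myom2, Myot, Nexn, Tcap and Xirp1. An E-box match was present in 34 of the 48 windows (70.8%) and in 66.2% of all 32851 windows of that length. The MCAT letters were in 11 (22.9%, against 12.6% of all windows), GATAA in 15 (31.2%, against 22.6%) and TATAAA in 6 (12.5%, against 12.4%). A match describes the letters only.

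Signals are given as log2 of the processed signal, shifted so that 0 is the 75th percentile of that array. Because probes bind with different strength, levels of different probes were not compared as amounts of transcript. A gene is represented by its brightest probe, and all 39 such probes were well above background on all 15 arrays. Of the 68 probes, 67 were tested, and the exception was a Tpm1 probe that was above background on 1 array. The residual SD, which is what remains after group and trial are fitted, had a median of 0.15 (range 0.07 for Nebl to 0.31 for Sgcd) over the 39 genes and 0.18 over all 28358 probes tested. In bulk heart tissue, fewer cells of a type and less RNA per cell cannot be told apart.

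No sarcomere, Z-disc or costamere gene passed the test for methamphetamine in either sex. By limma with Benjamini-Hochberg adjustment over 28358 probes, 0 of 39 genes had an adjusted p under 0.05 in males and 0 of 39 in females, where 1.11% and 0.758% of all probes passed. At an unadjusted p under 0.05 there were 4 genes in males (Tcap, Nebl, Tnni1 and Myot) and 4 in females (Lmod2, Myoz2, Tcap and Csrp3), where 12.8% and 11% of all probes reached it, so neither count stood above the share over all probes. The methods' t-test gave 6 genes in males when paired and 5 when unpaired, and 0 and 1 in females, and after adjustment it gave 0 in each. Before adjustment that method gave 4313 of all 28358 probes in males when paired and 3769 when unpaired. In females it gave 2817 and 2350. Among the brightest probes the lowest adjusted p by limma was 0.241 in males (Tcap) and 0.095 in females (Lmod2).

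The intervals around these differences were narrow. The 95% interval lay wholly within a 1.5-fold change for 36 of the 39 genes in males and 35 in females, and within a 2-fold change for all 39 in both. In males 9 genes had a mean above PBS and 30 below, with a median difference of −0.09 on the log2 scale, where 44.9% of all genes by their brightest probe were above, with a median of −0.02. In females 34 were above and 5 below, with a median of 0.08, where 58.6% of all genes were above, with a median of 0.03. With quantile normalization the same counts were 14 above and 25 below in males and 23 above and 16 below in females.

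**Figure D1:**
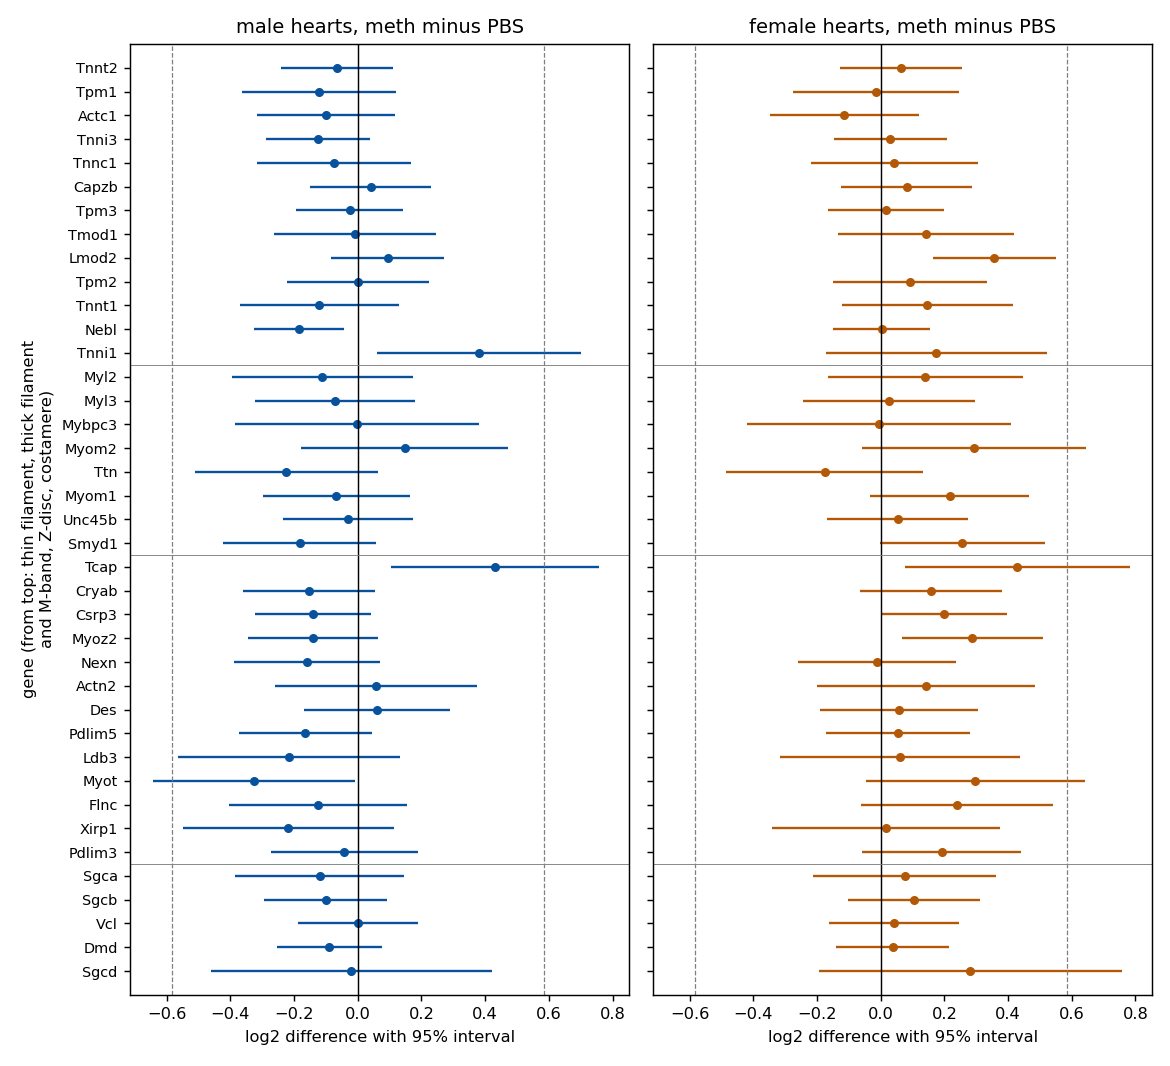
The log2 difference between meth and PBS hearts (x axis) is plotted for 39 genes (y axis) in males on the left and females on the right, with points for the estimate and bars for its 95% interval; dashed lines mark a 1.5-fold change and grey lines divide the 4 roles. Most points lie left of 0 in males and right of 0 in females, and Tcap lies to the right in both.

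Tcap, or telethonin, a small Z-disc protein that caps the end of titin, had the largest difference in each sex among the brightest probes of these genes. Signals in male PBS hearts were 9.36 and 9.37 in trial 1 and 8.78 and 8.93 in trial 2. Male meth hearts gave 9.63 and 9.55 in trial 1 and 9.37 and 9.62 in trial 2. Each meth heart was thus at or above the PBS hearts of its own trial. Female PBS hearts gave 9.09, 8.85 and 8.65, and female meth hearts 9.49, 9.41, 8.84 and 9.44. Of the female meth hearts only replicate 3, on slide 4, lay among the PBS values.

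The Tcap difference was 0.43 ± 0.15 (SE) in males and 0.43 ± 0.16 in females, with limma adjusted p-values of 0.241 and 0.317. Over both sexes it was 0.43 ± 0.11, a 1.35-fold difference with a 95% interval of 0.19 to 0.67 on the log2 scale, and the adjusted p was 0.0635. By trial the male difference was 0.23 ± 0.21 and 0.63 ± 0.21. Without female meth replicate 3 the difference over both sexes was 0.51, with an adjusted p of 0.0141. In all, Tcap passed under 7 of 29 alternatives, which the closing section names. The highest adjusted p was 0.432, with trial 1 arrays alone. In the comparison over both sexes 0 of the 39 genes passed as designed, against 2.65% of all probes, and 3 had an unadjusted p under 0.05 (Tcap, Lmod2 and Tnni1), which 15.3% of all probes reached.

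**Figure D2:**
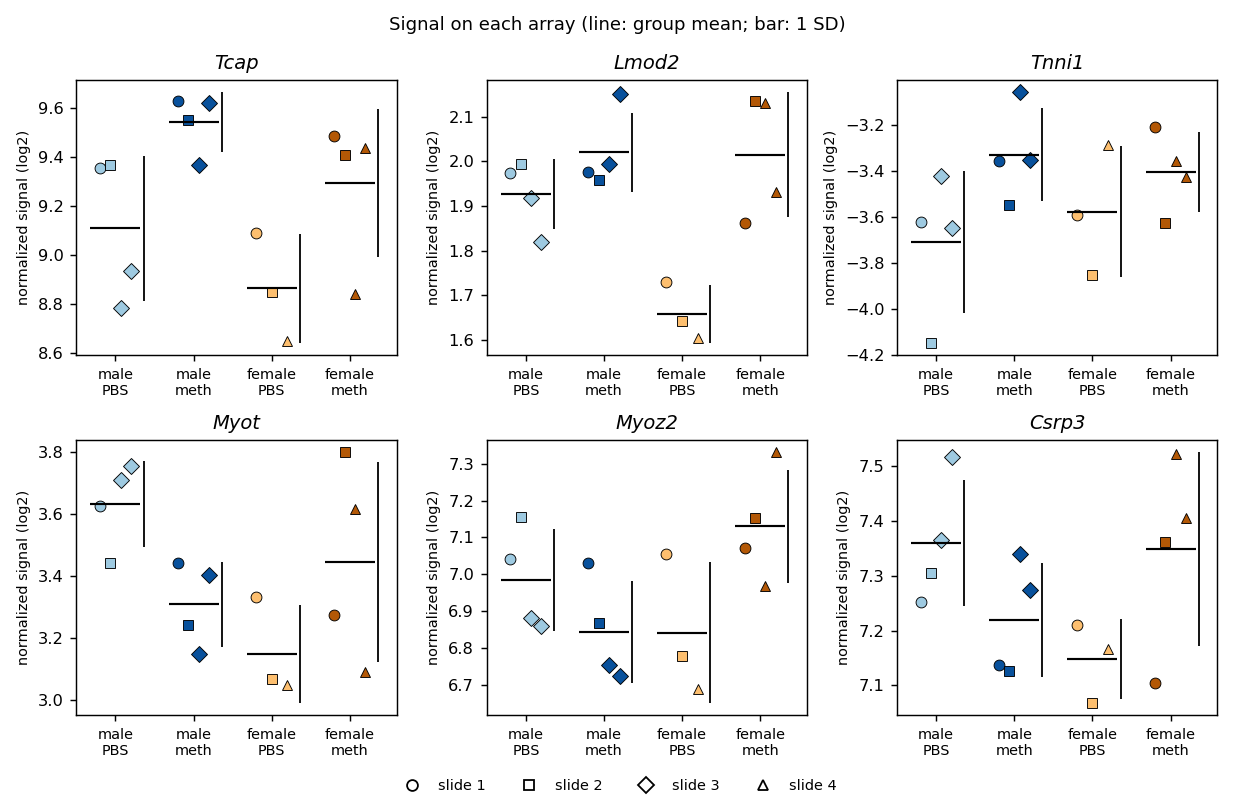
Each panel plots the normalized log2 signal (y axis) of 1 gene on each array by group (x axis), with marker shape for the slide, a horizontal line for the group mean and a vertical bar for 1 SD. For Lmod2 the 4 female meth hearts lie above the 3 female PBS hearts; for Tcap, Tnni1, Myot, Myoz2 and Csrp3 the female groups overlap.

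Among thin filament genes, Lmod2 led in females. It encodes leiomodin, which lengthens the actin filament at its free end. Female PBS hearts gave 1.73, 1.64 and 1.60 and female meth hearts 1.86, 2.14, 2.13 and 1.93. All 4 meth hearts therefore lay above all 3 PBS hearts, and the 2-sided exact permutation p was 0.0571. The difference was 0.36 ± 0.09 (SE), a 1.28-fold difference, with a limma adjusted p of 0.095. Male PBS hearts gave 1.98, 2.00, 1.92 and 1.82 and male meth hearts 1.98, 1.96, 2.00 and 2.15, groups that overlapped (0.09, adjusted p = 0.692).

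Tnni1 encodes the slow skeletal troponin I, the form of the fetal heart. Male PBS hearts gave −3.62, −4.15, −3.42 and −3.65 and male meth hearts −3.36, −3.55, −3.06 and −3.35. The male groups overlapped, with the lowest value in PBS trial 1 replicate 2. The male difference was 0.38 ± 0.15 (adjusted p = 0.294), and it was 0.12 with normexp background correction. A second Tnni1 probe, above background on 11 of 15 arrays, gave 0.39 ± 0.28 (adjusted p = 0.620). The female difference was 0.17 (adjusted p = 0.787).

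The adult troponin complex and the cardiac actin did not pass in either sex. On its brightest probe Tnni3, the inhibitory subunit, averaged 9.07 ± 0.06 (SD, n = 4) in male PBS, 8.95 ± 0.11 (n = 4) in male meth, 8.91 ± 0.10 (n = 3) in female PBS and 8.94 ± 0.08 (n = 4) in female meth hearts. A second Tnni3 probe, above background on all 15 arrays, gave −0.40 ± 0.22 (SE, adjusted p = 0.491) in males and −0.03 in females, against −0.12 and 0.03 on the first. Tnnt2, which binds the complex to tropomyosin, differed by −0.07 in males and 0.06 in females, Tnnc1, the calcium sensor, by −0.08 and 0.04, and Actc1, the cardiac actin, by −0.10 and −0.11. Over the 13 thin filament genes 4 were above PBS in males and 11 in females. Nebl, a nebulin relative at the Z-disc end of the filament, was −0.18 in males with an adjusted p of 0.247. Its SD within male PBS hearts was 0.25 (n = 4) before the trial term.

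Of the thick filament and M-band genes, Ttn was measured by 8 probes. It encodes titin. On the brightest probe male PBS hearts gave 6.53 and 6.59 in trial 1 and 7.40 and 7.47 in trial 2. Male meth hearts gave 6.52 and 6.23 in trial 1 and 7.12 and 7.22 in trial 2. The trial separated these hearts more than the treatment did, and within each trial both meth hearts were below both PBS hearts. The male difference on this probe was −0.22 ± 0.13 (SE, adjusted p = 0.519) and the female difference −0.18 ± 0.14 (adjusted p = 0.747).

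All 8 Ttn probes were lower in male meth than male PBS hearts, by −0.17 to −0.68. These probes read transcripts of the same gene and are not replicates. Both meth hearts were below both PBS hearts on 6 probes in trial 1 and on 8 probes in trial 2, where 29% and 30.6% of all probes showed the same order. The largest difference was on probe A_52_P524700, where male PBS hearts gave 4.13 and 4.20 in trial 1 and 5.13 and 4.94 in trial 2. Male meth hearts gave 3.91 and 3.68 in trial 1 and 4.13 and 3.96 in trial 2 on that probe. Its male difference was −0.68 ± 0.17 (adjusted p = 0.100), with −0.37 ± 0.22 in trial 1 and −0.98 ± 0.22 in trial 2. Over both sexes it was −0.48 ± 0.13 (adjusted p = 0.0728). In females the 8 probes ran from −0.28 to 0.04. Where the probes lie along the transcript was not given in the sources used here.

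**Figure D3:**
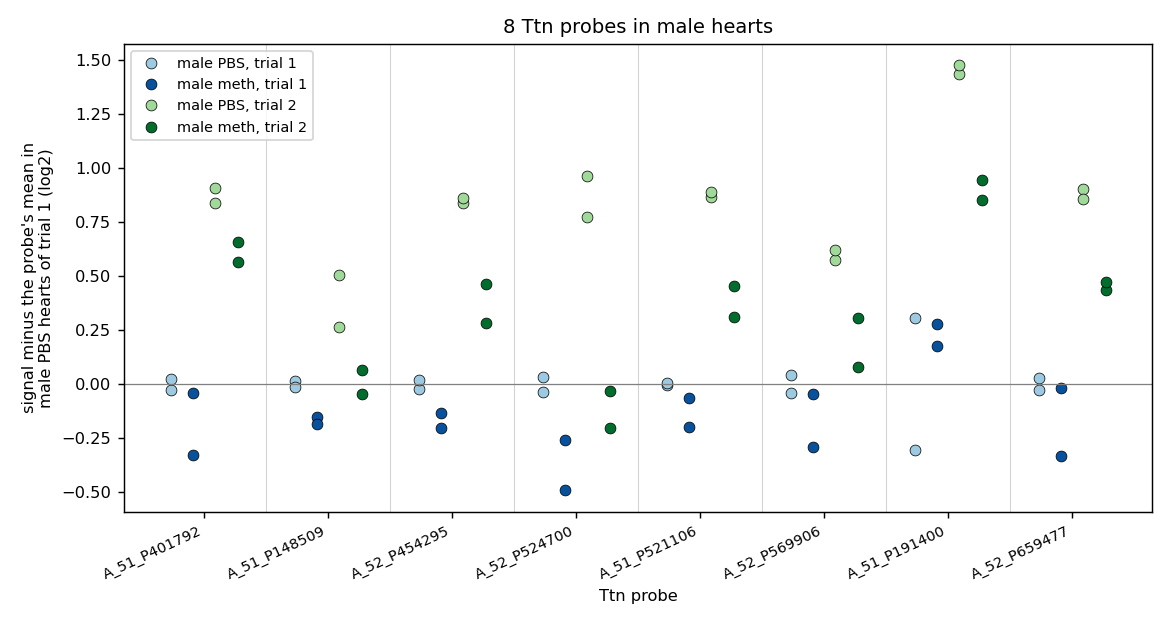
For each of 8 Ttn probes (x axis), the signal of each male heart minus that probe's mean in the PBS hearts of trial 1 is plotted on the log2 scale (y axis), with 2 hearts for each treatment and trial. In trial 2 the meth hearts lie below the PBS hearts on every probe, and the PBS hearts of trial 2 lie above those of trial 1 on every probe.

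On their brightest probes the other thick filament and M-band genes differed less than Ttn in males. In females Myom2, Smyd1 and Myom1 differed more than Ttn, by 0.29, 0.26 and 0.22. Myom2, an M-band protein that links myosin filaments, gave 7.92 ± 0.06 (SD, n = 4, lowest 7.86) in male PBS and 8.02, 7.93, 8.26 and 8.05 in male meth hearts. In females it gave 8.11, 7.90 and 7.37 in PBS and 8.03, 8.43, 7.96 and 7.92 in meth hearts. The groups overlapped in both sexes, and the lowest value was that of female PBS replicate 3. Its difference over both sexes was 0.22 ± 0.11 (SE, adjusted p = 0.380). The regulatory light chain Myl2 differed by −0.11 in males and 0.14 in females, Myl3, the essential light chain, by −0.07 and 0.03, and Mybpc3, the myosin-binding protein C of the heart, by −0.001 and −0.005.

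The response to methamphetamine was compared between the sexes, and no gene passed that test. For the male response minus the female response, 0 of 39 genes passed by limma, where 0.138% of all probes passed, and 6 genes had an unadjusted p under 0.05 (Myoz2, Myot, Csrp3, Smyd1, Cryab and Lmod2), which 8.67% of all probes reached. With quantile normalization 2 genes reached it. The lowest adjusted p was 0.439. It was below 0 for 34 genes and above 0 for 5, with a median of −0.15, where 42.2% of all genes were above 0 and their median was −0.04. With quantile normalization the split was 22 and 17 and the median −0.03. The 95% interval lay within 1.5-fold for only 24 of the 39.

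Myot, or myotilin, which crosslinks actin at the Z-disc, gave the largest difference in response. Male PBS hearts gave 3.63, 3.44, 3.71 and 3.76 and male meth hearts 3.44, 3.24, 3.15 and 3.40. Female PBS hearts gave 3.33, 3.07 and 3.05 and female meth hearts 3.28, 3.80, 3.62 and 3.09. The male groups touched at 3.44 and the female groups overlapped. The response was −0.33 ± 0.15 (SE) in males and 0.30 ± 0.16 in females, and their difference was −0.62 ± 0.22 (adjusted p = 0.472). The female response was 0.11 with normexp.

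Myoz2, a Z-disc tether of the phosphatase calcineurin, gave 7.04, 7.16, 6.88 and 6.86 in male PBS and 7.03, 6.87, 6.75 and 6.72 in male meth hearts. It gave 7.06, 6.78 and 6.69 in female PBS and 7.07, 7.15, 6.97 and 7.33 in female meth hearts. Male meth hearts were the lower in each trial on average, and 3 of the 4 female meth hearts were above every female PBS heart. The responses differed by −0.43 ± 0.14 (adjusted p = 0.439), or by −0.29 with quantile normalization, and the female response of 0.29 was 0.12 with normexp. 

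Csrp3, the muscle LIM protein at the Z-disc, gave 7.25, 7.31, 7.37 and 7.52 in male PBS and 7.14, 7.13, 7.34 and 7.27 in male meth hearts. In females it gave 7.21, 7.07 and 7.17 in PBS and 7.10, 7.36, 7.52 and 7.41 in meth hearts. In females 3 of the 4 meth hearts were above all PBS hearts, and the responses differed by −0.34 ± 0.13 (adjusted p = 0.505), or by −0.16 with quantile normalization. Smyd1, a methyltransferase of muscle found at the M-band, gave 4.28, 4.12, 3.77 and 3.66 in male PBS and 3.98, 4.20, 3.33 and 3.58 in male meth hearts. In females it gave 4.15, 3.96 and 3.63 in PBS and 4.07, 4.26, 4.22 and 4.13 in meth hearts. Among males the trial 2 hearts were the lowest, the groups overlapped in both sexes, and the responses differed by −0.44 ± 0.16 (adjusted p = 0.510).

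Flnc, the muscle filamin, which crosslinks actin at the Z-disc and membrane, gave 3.18, 3.22, 3.74 and 3.68 in male PBS and 3.27, 3.29, 3.36 and 3.40 in male meth hearts. In females it gave 3.16, 3.01 and 3.35 in PBS and 3.10, 3.40, 3.75 and 3.40 in meth hearts. The male PBS hearts of trial 2 stood above all other males, and the responses differed by −0.36 ± 0.19 (adjusted p = 0.623), or by −0.16 with trial 1 arrays alone. Its 3 probes gave −0.39 to −0.04 in males and −0.01 to 0.24 in females.

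Of the remaining Z-disc genes, Xirp1, an actin-binding repeat protein, gave 2.68, 2.66, 3.07 and 3.09 in male PBS and 2.54, 2.59, 2.78 and 2.72 in male meth hearts. Each meth heart was below both PBS hearts of its trial, an order that 29% of all probes showed in trial 1 and 30.6% in trial 2. The Xirp1 difference in males was −0.22 ± 0.15 (SE, adjusted p = 0.602). In females it differed by 0.02. Des, the intermediate filament desmin that links neighbouring Z-discs, differed by 0.06 in both sexes. Actn2, the actinin that crosslinks thin filaments at the Z-disc, differed by 0.06 in males and 0.14 in females. Cryab, the chaperone of desmin, differed by −0.15 and 0.16.

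Among the costamere genes, Sgca, a sarcoglycan of the dystrophin complex, was the only one of the 39 whose male groups did not overlap. Male PBS hearts gave 3.99, 3.97, 3.99 and 3.94 and male meth hearts 3.82, 3.83, 3.83 and 3.94. The lowest PBS value was 3.942 and the highest meth value 3.936, so the groups only just separated. All meth values were lower, by 0.12 on average, and the 2-sided exact permutation p was 0.0286, the smallest that 4 against 4 can give. In limma the adjusted p was 0.741, and 9.85% of all probes had male groups that did not overlap. In females 1 of 39 did not overlap (Lmod2), where 9.06% of all probes did not. Dmd, or dystrophin, differed by −0.09 in males and 0.04 in females, and Vcl, or vinculin, by 0.001 and 0.04.

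Sgcd had the widest scatter. Female PBS replicate 3, on slide 4, gave −1.79, while the other 14 hearts ran from −0.89 to −0.49. Every difference of Sgcd that involves female PBS hearts rests on that array. The male PBS minus female PBS difference was 0.31 with it and −0.07 without it.

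In hearts that received only PBS, most of these genes were higher in males than in females after the trial term, but none passed the test. The count was 32 of 39 above and 7 below, with a median of 0.14, where 52.4% of all genes were above and their median was 0.01. Without the trial term 35 were above and 4 below. This direction depended on the scaling: with quantile normalization 17 were above and 22 below, with a median of −0.02. By limma 0 of 39 passed, against 0.48% of all probes, with 8 at an unadjusted p under 0.05, which 15.2% of all probes reached, and a lowest adjusted p of 0.225 (Tnnt2). On the signals before the trial term, the 4 male and 3 female PBS hearts did not overlap in 11 of the 39 genes. Of these 11, 10 were higher in males, and 14.7% of all probes did not overlap.

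Tnnt2 gave 9.28, 9.24, 9.37 and 9.47 in male PBS and 9.19, 8.97 and 8.83 in female PBS hearts, a difference of 0.27 ± 0.10 (SE) after the trial term. Myot differed by 0.45 ± 0.17 (SE, adjusted p = 0.253), Tcap by 0.40 ± 0.18 (adjusted p = 0.320), Smyd1 by 0.32 ± 0.13 (adjusted p = 0.276) and Lmod2 by 0.27 ± 0.10 (adjusted p = 0.227). Tpm2, the beta tropomyosin, gave 1.83, 1.87, 2.01 and 2.10 in male PBS and 1.62, 1.81 and 1.59 in female PBS hearts, without overlap (0.29 ± 0.12, adjusted p = 0.296), while its second probe gave −0.01. Without the trial term the difference was 0.04 for Smyd1 and 0.25 for Tcap. Tpm3, a tropomyosin of slow muscle and non-muscle cells, was the gene that was lower in every male PBS heart, at a mean of 4.10 against 4.33. Leaving out the slide 4 arrays, 34 of 39 were above and 0 passed.

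No atrial marker passed in any comparison. Their summed signal (as a multiple of the 75th percentile, over 6 of 6 genes) was 817 to 1130 in male PBS and 581 to 745 in female PBS hearts, and 1050 to 1310 and 742 to 993 in male and female meth hearts. After the trial term all 6 were higher in male than female PBS hearts, and 5 of 6 were higher in meth than PBS hearts of each sex. The 8 ventricular markers were above background on all arrays, with summed signals of 1680 to 1880 in male PBS, 1590 to 1810 in male meth, 1370 to 1640 in female PBS and 1380 to 1700 in female meth hearts. Of these 8, 7 had a lower mean in male meth than male PBS hearts (median −0.15). After the trial term 7 were higher in male than female PBS hearts, and 0 passed in either comparison. The part of atrial or ventricular tissue in the differences, those of Tcap and Lmod2 included, was not tested.

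Pdlim5, an adaptor at the Z-disc, had probes that differed in sign. Its 3 probes for a first RefSeq transcript gave male minus female PBS differences of 0.09, 0.04 and −0.28, and its 2 probes for another transcript gave −0.44 ± 0.10 (SE, adjusted p = 0.0840) and −0.38 (adjusted p = 0.166). In all, 16 of the 39 genes had several tested probes. Over all 67 probes 14 were above PBS in male meth hearts and 53 below, 48 were above and 19 below in females, and 0 passed in either.

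On its brightest probe, no gene passed between the PBS hearts of the 2 male trials. PBS hearts of trial 2 were above those of trial 1 for 28 genes and below for 11, with a median of 0.16, where 52.1% of all probes were above, and 0 of 39 passed, against 0.487% of all probes. The lowest adjusted p was 0.0642 (Pdlim5, 0.60). Ttn was 0.87 ± 0.19 (SE) higher in trial 2 on its brightest probe (adjusted p = 0.077) and 0.39 to 1.46 higher over its 8 probes, of which 1 passed (A_51_P191400, 1.46, adjusted p = 0.0243). In the other direction Tcap was −0.50 ± 0.21 and Smyd1 −0.48 ± 0.16. With 2 hearts for each treatment in a trial, meth minus PBS was above 0 for 13 genes and below for 26 in trial 1 and above for 9 and below for 30 in trial 2, where 44.5% and 43.0% of all probes were above, and 0 passed in either, against 0.3% and 0.356% of all probes.

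**Figure D4:**
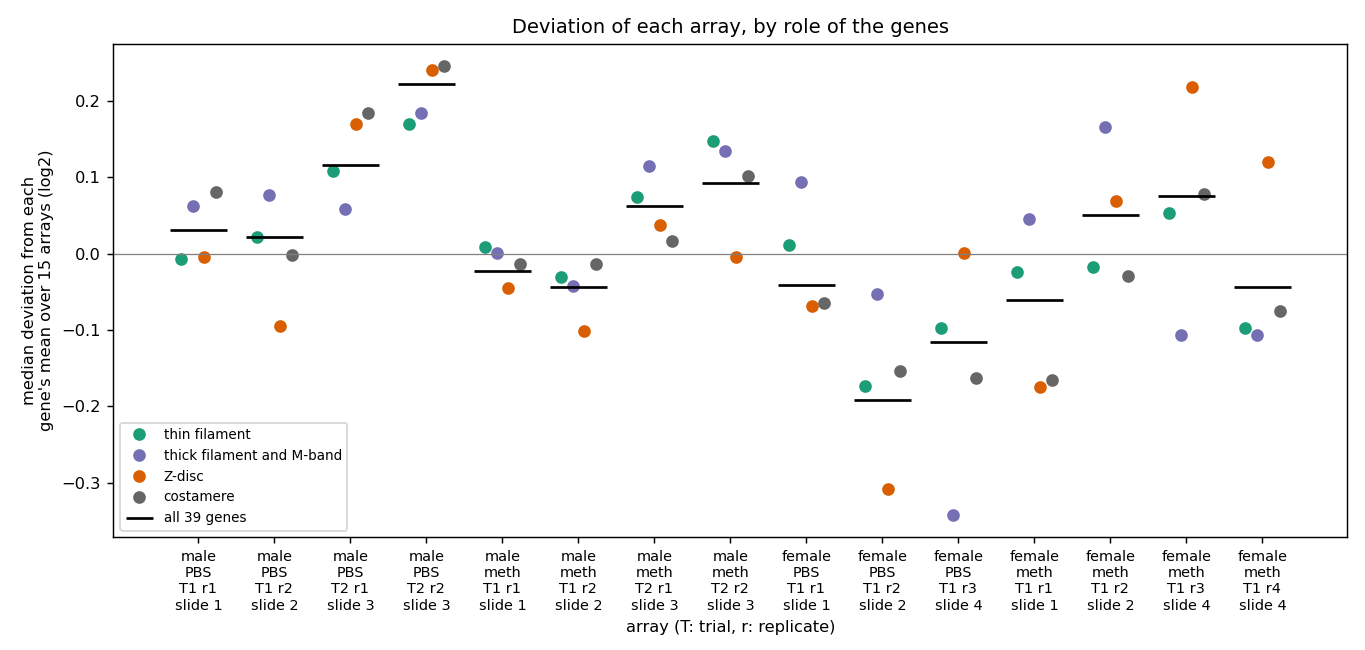
For each of 15 arrays (x axis), the median deviation of the genes from their own mean over all arrays is plotted on the log2 scale (y axis), for each of 4 roles as points and for all 39 genes as a line. Male PBS trial 2 replicate 2 is highest at 0.22 and female PBS replicate 2 lowest at −0.19, and on the 3 slide 4 arrays the thick filament and M-band median lies below the Z-disc median.

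Some arrays were high or low for many genes at once. Male PBS trial 2 replicate 2 gave the highest value of 13 of the 39 genes. Female PBS replicates 2 and 3 each gave the lowest value of 9. On slide 4 the thick filament and M-band genes had a median deviation of −0.11, −0.11 and −0.34 in meth replicate 3, meth replicate 4 and PBS replicate 3, while the Z-disc genes had 0.22, 0.12 and 0.001.

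A further 62 genes of the sarcomere and its membrane links were counted in the same way, and 61 had a probe, all above background on all arrays. In males 16 were above PBS and 45 below, and in females 40 were above and 21 below, where 44.9% and 58.6% of all genes were above. In PBS hearts 49 were above in males and 12 below after the trial term, where 52.4% of all genes were above. These counts were not repeated with quantile normalization, with which the PBS split of the 39 genes was 17 above and 22 below. A single call was made among the 61 genes in males, where 1.11% of all probes were called, and 0 in the other comparisons, so the count is near that share. Lims1, or PINCH, an adaptor of integrin-linked kinase at sites of attachment, fell in male meth hearts. Male PBS hearts gave 2.76, 2.74, 3.01 and 2.82 and male meth hearts 2.50, 2.47, 2.47 and 2.56, with no overlap. The fall was −0.34 ± 0.06 (SE) with an adjusted p of 0.0293. In females it was −0.01 (adjusted p = 0.986), and the difference between the sexes had an adjusted p of 0.386. The call was lost without any 1 of the 8 male arrays, with adjusted p-values of 0.0542 to 0.103, and with the replicate block (0.0987). It was kept under 16 of 32 alternatives, and the highest adjusted p was 0.541, with another background correction.

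The next 4 genes of that list by adjusted p did not pass. Mybphl, an atrial relative of myosin-binding protein, differed by 0.42 over both sexes (adjusted p = 0.153), and Nrap, a scaffold for myofibril assembly, by 0.31 in females (adjusted p = 0.156). Myh7, the slow myosin heavy chain, gave 4.73, 4.55, 5.49 and 5.26 in male PBS hearts. It gave 5.56, 4.57, 8.41 and 6.84 in male meth hearts. The 2 trial 2 meth hearts were above all others, and the male difference was 1.34 ± 0.40 (adjusted p = 0.172). Neb, or nebulin, was −0.32 over both sexes (adjusted p = 0.173).

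Markers of other tissue were checked. Of 7 skeletal muscle markers tested, 1 (Tnni2) fell in male meth hearts (−0.64, adjusted p = 0.0243), where 1.11% of all probes were called. The summed signal of that list was 241 to 276 in male PBS and 190 to 262 in male meth hearts, and Myh2 was above background on no array. Most of that summed signal came from the Myh4 probe, with a mean log2 signal of 7.81 against 0.41 for the Tnni2 probe. As probes bind with different strength, this does not rank the transcripts. Myh4 did not pass in males (−0.10, limma adjusted p = 0.886). Airway markers rose in male meth hearts in 4 of 4 genes tested, where 1.11% of all probes were called in males. Of 6 listed, 5 had a probe, and Epcam, above background on 1 array, was not tested. Foxj1 was above background on 4 arrays and Bpifa1 on 8, so they could enter the test through the group where they were high. The summed signal was 0.269 to 0.292 in male PBS and 29.2 to 143 in male meth hearts. It was 1.26 to 2.59 and 0.784 to 2.95 in female PBS and meth hearts. In females 1 of the 4 rose (Bpifa1, 4.77, adjusted p = 0.0112), where 0.758% of all probes were called. Scgb1a1, 1 of the 4, was lower in male than female PBS hearts (−5.25, adjusted p = 0.0019), where 0.48% were called. Of 3 white fat markers tested, 1 (Retn) rose over both sexes (adjusted p = 0.0139), where 2.65% of all probes were called. Fibroblast, smooth muscle, endothelium, brown fat, red blood cell and leukocyte markers gave 0 calls in any of the 5 comparisons. The 1 liver marker tested, Alb, was lower in male than female PBS hearts (limma adjusted p = 0.0014), where 0.48% of all probes were called. Alb was above background on 7 arrays, so it too could enter the test through the group where it was high. The part of these tissues in the differences was not tested.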

How the data were processed

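Total RNA of each heart was labelled with Cy3 and read on a 1-colour Agilent mouse array. The authors extracted the scanner intensity with Agilent Feature Extraction (version 9.1 per the labels, 10.5.1.1 per the file headers), and the deposited processed signal, an intensity, is already corrected for background. A value table by the authors holds log2 values, equal to log2 signal plus a constant per array, and served as an alternative. Here, outlier spots were dropped, spots of a probe averaged, and log2 values shifted by the 75th percentile of each array. Probes that exceeded background clearly on 3 or more of 15 arrays were fitted together by limma 3.58.1 (R 4.3.3) with 4 groups and trial, and p-values were adjusted by Benjamini-Hochberg over 28358 probes at 0.05. Differences are on the log2 scale with standard errors, and the script was tested on simulated data. Symbols came from RefSeq through probe accessions (26918 of 41174 probes). Named members were the 5 with the largest difference in each of 5 comparisons. Where a comparison is described by other genes, they were chosen for their role, their overlap between groups or after their values were seen. For the 62 other genes, the 5 with the lowest adjusted p were named. The members, lists and rules were chosen with earlier results of these data known. Marker lists covered ventricle, atrium, skeletal muscle, smooth muscle, fibroblast, endothelium, airway, brown fat, white fat, liver, red blood cell and leukocyte. Precision was limited by the number of arrays.

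Replicate numbers pair arrays that lay on the same slide in both sexes. What remained after group and trial were fitted correlated at 0.25, 0.39 and 0.62 within female pairs and at −0.31 to −0.21 within male pairs. Because trial was fitted first in males, the male values cannot tell whether the numbers pair the hearts. The pairing behind the methods' paired t-test is not given in the sources used here, so it was run with the replicate numbers as an alternative. Other alternatives were background correction, normalization, filters, trial, slide or session terms, subsets of groups, and leaving out each array.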

Additional observations from a re-analysis of the deposited data

Results flagged for a closer look

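Among 39 groups of 4 hearts checked (13 genes in 3 groups), 1 value stood apart from its group by Dixon's test, and chance marks about 1 in 20 groups. Tcap in female meth replicate 3 was 8.84, while the other 3 female meth hearts ran from 9.41 to 9.49 (gap over range 0.877). That array was on slide 4, as was female meth replicate 4 at 9.44.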

How the results depend on the processing

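For 25 differences of the 13 named genes, 753 of 763 values under alternatives kept their direction and did not cross the threshold, 8 passed the test where the value as designed did not, and 2 reversed. Medians over a gene's probes had no test and were judged by direction alone. Sizes moved more: the female Myom2 difference, 0.294 as designed, ran from 0.081 to 0.451. The reversed values were those of Sgcd between male and female PBS hearts, −0.071 without female PBS replicate 3 (range 0.521 to −0.071 over single arrays left out) and −0.071 without the slide 4 arrays, a setting added after seeing the data. The count of genes passing stayed at 0 in males, in females, between the sexes, in PBS hearts and within each trial under all alternatives run. Over both sexes it was 1 (Tcap) with quantile normalization (adjusted p = 0.0417), with probes above background on all 15 arrays (0.0461), with the trial of the other label (0.0237), with slide as a block (0.0304) and without the slide 4 arrays (0.0448), and 2 (Tcap, and Lmod2 at 0.0494) with scan session as a block. Leaving out single arrays gave 0 to 1, with Tcap passing only without female meth replicate 3. Across 29 alternatives the Tcap difference ran from 0.33 to 0.51, and it passed under 7 of them. Its adjusted p was 0.174 with normexp, 0.114 with no filter, 0.115 with no trial term and 0.432 with trial 1 arrays alone. With the replicate block 0 genes passed over both sexes (Tcap adjusted p = 0.055), and the block changed no member's call. Whether the replicate numbers pair the male hearts is not known. Over all probes the block gave 157 calls in males and 101 in females, against 314 and 215, while another background correction gave 53 and 27 and scan session as a block 667 and 508. Female meth replicate 4 is alone in its block, and the blocked fit cannot give the PBS comparison of the sexes. Scaling by the median moved the median of all probes from −0.03 to 0.09 between male and female PBS hearts and from −0.02 to −0.12 between the responses. The Ttn probe A_52_P524700 over both sexes passed under 2 of 29 alternatives. The arrays of slide 4 and of trial 2 each hold 1 sex, which limits what the PBS comparison of the sexes can show.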
